A study of Zea mays with 6 samples.

Results

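The cellulose synthase catalytic subunit genes of maize, CesA1, CesA2, CesA4, CesA5, CesA6, CesA7, CesA9, CesA10, CesA11 and CesA12, were examined in coleoptile tips of a cuticle mutant. The 10 genes were chosen by their identifiers from the 39283 genes of the expression table, 7 as genes of the primary wall and 3 as genes of the secondary wall. The coleoptile is the sheath around the young shoot of a grass seedling. Tips of 3 to 4 mm were taken 3 days after germination from seedlings grown at 28°C, 5 tips to a replicate and 3 replicates to a group.

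The mutant group carried fdl1-Mu, a Mu transposon insertion in FUSED LEAVES1 (FDL1, also called ZmMYB94), which encodes an R2R3 MYB transcription factor of cuticle formation. The control group is labelled wild type. Both were of the W22 inbred background, whereas the reads were mapped to the genome of the inbred B73. The methods name both homozygous and heterozygous fdl1-Mu plants among those collected, and the labels do not give the zygosity of a sample. Whether the group labelled wild type held heterozygous carriers of fdl1-Mu is therefore not known. Mutant tips were picked for a normal appearance, so that visibly fused coleoptiles are not represented. Expression is given as FPKM, fragments scaled for transcript length and library size, with 1 value per gene and group that the authors pooled over the replicates. No spread between replicates therefore stands beside any value, no test between the groups was run, and the number of reads behind a value is unknown. For FDL1 itself (GRMZM2G056407) the FPKM was 12.7 in the group labelled fdl1-Mu, against 4.58 in the group labelled wild type, so that the mutated gene was 2.78-fold higher in the group that carries the mutant label. This value covers the gene as a whole and so does not check the labels, on which every direction given here rests.

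Cellulose is made at the plasma membrane by rosette-shaped complexes whose catalytic subunits are CesA proteins, each of which extrudes a glucan chain into the wall. In Arabidopsis, a complex needs subunits of several CESA classes, with one set used while cells expand and build the primary wall and another set used in the secondary walls of vessels and fibres. The coleoptile grows mainly by cell elongation, during which new cellulose is laid into a stretching primary wall. The study's annotation of closest Arabidopsis homologues pairs CesA2 with CESA1, CesA4 with CESA3 and CesA7 with CESA6, the classes from which primary wall complexes of Arabidopsis are built.

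All 7 primary wall genes were transcribed in both groups. CesA2 (GRMZM2G027723, chromosome 6 of B73v3, 128743576 to 128750030) had the highest FPKM of the primary wall genes, with 90.8 in the group labelled fdl1-Mu and 58.4 in the group labelled wild type. CesA7 (GRMZM2G025231, chromosome 7, 37037007 to 37042784) had 73.4 in fdl1-Mu and 39.0 in wild type. CesA1 (GRMZM2G112336, chromosome 8, 79738607 to 79744724) had 57.0 in fdl1-Mu and 38.6 in wild type. The values of these genes in fdl1-Mu were 1.48 to 1.88 times those in wild type.

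CesA4 (GRMZM2G424832, chromosome 7, 18620330 to 18626341) had an FPKM of 52.7 in fdl1-Mu and 31.2 in wild type. CesA9 (GRMZM2G018241, chromosome 2, 161757546 to 161763704) had the lowest level of the primary wall genes, 24.1 in fdl1-Mu and 15.6 in wild type. CesA6 (GRMZM2G113137, chromosome 1, 296334073 to 296339855) had 53.6 in fdl1-Mu and 43.3 in wild type. CesA5 (GRMZM2G111642, chromosome 1, 290666783 to 290672751) was the only one of the 7 with a lower value in the group labelled fdl1-Mu, 35.4 against 36.2 in wild type. In each group the highest of the 7 was 3.7 to 3.8 times the lowest (3.78 in fdl1-Mu and 3.74 in wild type).

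**Figure D1:**
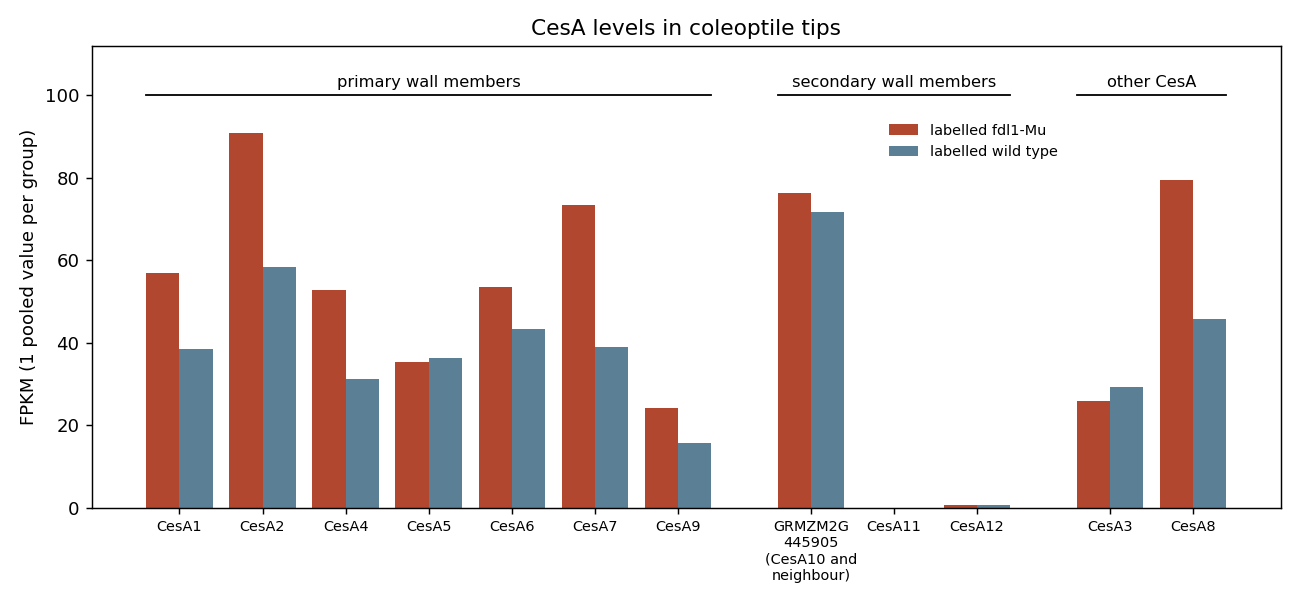
Bars give the FPKM of each CesA gene, 1 pooled value per group without error bars, for the 10 members and for CesA3 and CesA8. Of the 7 primary wall genes, 6 had the taller bar in the group labelled fdl1-Mu, CesA11 was listed at 0, and CesA12 stayed under an FPKM of 1 in both groups.

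The ratios of fdl1-Mu to wild type ran from 0.977 for CesA5 to 1.88 for CesA7. CesA7 had a log2 ratio of 0.91, CesA4 one of 0.76 (1.69-fold), CesA2 one of 0.64 (1.55-fold) and CesA9 one of 0.62 (1.54-fold). CesA1 followed at 0.56 (1.48-fold), and CesA6 at 0.31 (1.24-fold). CesA7 and CesA4 thus lay furthest from equality, while CesA5, with a log2 ratio of -0.03, had nearly the same value in both groups.

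To set these ratios against the rest of the table, a ratio of at least 1.5 was used in place of a statistical call, among genes that reached an FPKM of 1 in one group or both and were above 0 in both. Of the 21364 such genes, 52.3% had the higher value in the group labelled fdl1-Mu, as did 6 of the 7 primary wall genes. Of all these genes, 11.7% were at least 1.5-fold higher and 5.33% at least 1.5-fold lower in the group labelled fdl1-Mu. Of the 10 CesA genes, 8 were in this set, the 7 primary wall genes and GRMZM2G445905. At least 1.5-fold higher were 4 of them, CesA7, CesA4, CesA2 and CesA9, and none was at least 1.5-fold lower. CesA9 and CesA2 lay just above that ratio and CesA1 just below it. No CesA gene was 2-fold higher, which 4.67% of the 21364 genes were.

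The same was read among the 11963 genes that reached an FPKM of 10 in one group or both, which include the same 8 members. Here 7.29% of genes were at least 1.5-fold higher and 2.82% at least 1.5-fold lower. The ratio of CesA7 exceeded those of 96.9% of these genes, that of CesA4 those of 95.5%, and those of CesA2, CesA9 and CesA1 each those of 92.3% to 93.8%. CesA6 stood above 81.8% of the genes and CesA5 above 44.4%. Each CesA ratio lay inside the middle 90% of the wider set of 21364 genes. That range ran from -0.60 to 0.97 on the log2 scale, around a median of 0.02. Among the 11963 genes the middle 90% ran from -0.49 to 0.72, and of the 8 members CesA7 and CesA4 lay above it. The median log2 ratio of the 7 primary wall genes was 0.62.

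**Figure D2:**
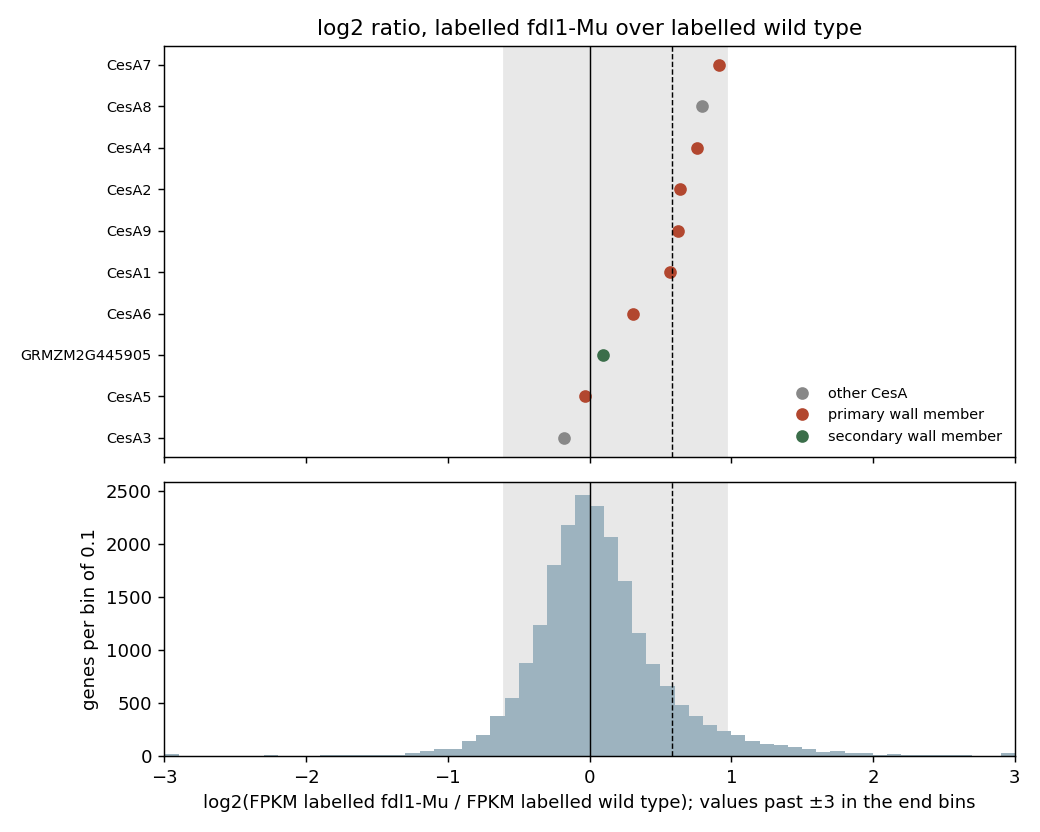
The upper panel gives the log2 ratio of FPKM, labelled fdl1-Mu over labelled wild type, for the 8 members with an FPKM of at least 1 and for CesA3 and CesA8, and the lower panel the same ratio for all 21364 genes in bins of 0.1. Grey marks the middle 90% of all genes (-0.60 to 0.97) and the dashed line a ratio of 1.5. CesA7, CesA8, CesA4, CesA2 and CesA9 lie to the right of that line, and CesA5 and CesA3 lie left of 0.

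Summed over the 7 primary wall genes, FPKM was 387.1 in the group labelled fdl1-Mu and 262.3 in the group labelled wild type, a ratio of 1.48. The difference of 124.8 FPKM was shared unevenly. CesA7 made up 27.6% of it, CesA2 26.0%, CesA4 17.3% and CesA1 14.8%, with 8.29% from CesA6 and 6.76% from CesA9, while CesA5 differed by -0.82 FPKM (fdl1-Mu minus wild type). Without CesA2, the most abundant of them, the ratio of the sums was close to that of all 7.

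The make-up of the primary wall group moved with these ratios. CesA7 accounted for 19.0% of the summed FPKM in fdl1-Mu and 14.9% in wild type, and CesA4 for 13.6% in fdl1-Mu and 11.9% in wild type. The share of CesA5 was 9.15% in fdl1-Mu, against 13.8% in wild type, and that of CesA6 was 13.9% in fdl1-Mu, against 16.5% in wild type. CesA1 held 14.7% of the sum in both groups. By order of FPKM, CesA2 stood first and CesA9 last in both groups. CesA7 took place 2 in fdl1-Mu and place 3 in wild type, and CesA6 place 4 in fdl1-Mu and place 2 in wild type. CesA7 had 2.07 times the FPKM of CesA5 in fdl1-Mu and 1.08 times in wild type. Several neighbours in this order were within a few FPKM of each other (CesA1, CesA6 and CesA4 in fdl1-Mu, and CesA7, CesA1 and CesA5 in wild type), and without values per replicate their order is not shown to differ from a tie.

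**Figure D3:**
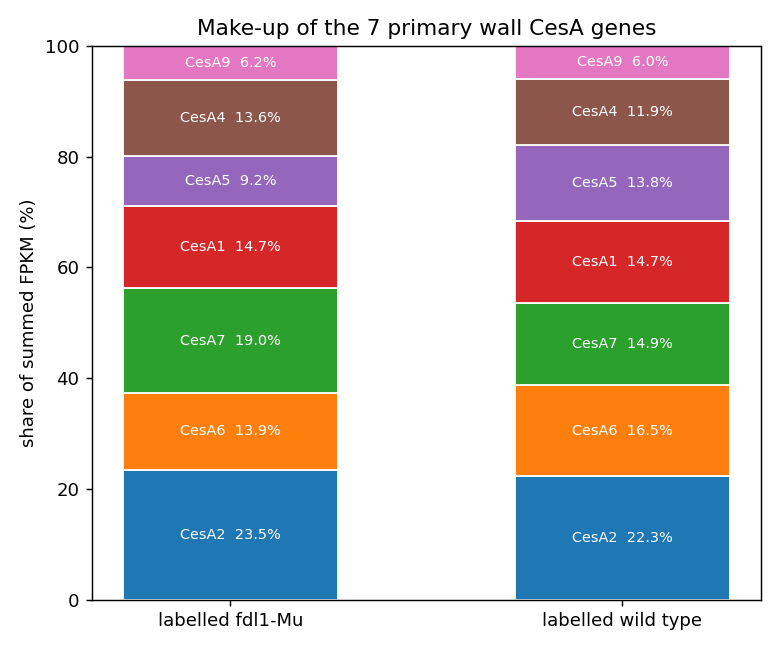
Stacked bars give the share of each gene, in percent, in the summed FPKM of the 7 primary wall CesA genes, for the group labelled fdl1-Mu and the group labelled wild type. CesA7 takes 19.0% in fdl1-Mu and 14.9% in wild type, CesA5 takes 9.15% in fdl1-Mu and 13.8% in wild type, and CesA1 takes 14.7% in both.

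The secondary wall genes gave a different picture, and it turned on 1 identifier. CesA12 (GRMZM2G142898, chromosome 7, 117546197 to 117550877) stood at 0.709 FPKM in the group labelled fdl1-Mu and 0.731 in the group labelled wild type, under the minimum of 1. CesA11 (GRMZM2G037413, chromosome 2, 29981034 to 29986917) was listed at 0 in both groups. GRMZM2G445905 (chromosome 1, 234316246 to 234326747), the identifier of CesA10, had 76.4 in fdl1-Mu and 71.7 in wild type, a log2 ratio of 0.09. It exceeded CesA12 by 107.7-fold in fdl1-Mu and 98.1-fold in wild type, and in wild type it exceeded every primary wall gene.

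GRMZM2G445905 is not a clean measure of CesA10. The RefSeq name table gives this identifier to 2 genes, cesa10 and a gene with the synonym csu1007(eif4F), named after the complex that binds the mRNA cap to start translation, and these stand side by side with 0 genes between them. The locus in the expression table spans 10502 bp, whereas those of the 9 other members span 4681 to 6455 bp. Fragments of cesa10 and of its neighbour therefore cannot be told apart in this value, and the level of CesA10 in coleoptile tips is not given by it. Of the 18994 identifiers matched to the name table, 520 were given to more than 1 gene in this way, and GRMZM2G445905 was the only member among them.

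The identifier of CesA11 also carries a doubt. RefSeq gives cesa11 both GRMZM2G037413 and GRMZM2G055795, and places it on the chromosome of GRMZM2G055795 rather than on that of GRMZM2G037413. Both identifiers were listed at 0 in both groups. CesA9 likewise has GRMZM2G150404 as a further identifier, which was listed at 0 in both groups, so that its level comes from GRMZM2G018241 alone.

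Summed FPKM of the 3 secondary wall genes was 77.1 in fdl1-Mu and 72.4 in wild type, a ratio of 1.06, of which GRMZM2G445905 made up 99.1% in fdl1-Mu and 99.0% in wild type. Without it, the sum was that of CesA12 alone, 0.709 in fdl1-Mu and 0.731 in wild type, a ratio of 0.971. For all 10 genes the sum was 464.2 in fdl1-Mu and 334.8 in wild type (ratio 1.39), and without GRMZM2G445905 it was 387.8 in fdl1-Mu and 263.0 in wild type (ratio 1.47). Among the members other than GRMZM2G445905, the primary wall genes thus made up nearly the whole sum.

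Laccase genes, taken as markers of vessels and fibres, were low. Laccases oxidise lignin monomers, and the genes were found by name in the name table. Whether each is specific to these cells was not tested. The 13 laccase identifiers found ranged from 0 to 1.77 FPKM in fdl1-Mu and from 0 to 1.96 FPKM in wild type. Of these, 6 were listed at 0 in both groups. Brittle stalk2 (bk2, GRMZM2G109326), a COBRA-like gene of maize whose loss makes stalks break, was listed at 0 in fdl1-Mu and at 0.0262 in wild type. It was named after its value was seen.

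The name table calls a further 3 genes CesA. CesA8 (GRMZM2G177631) stood at 79.4 FPKM in the group labelled fdl1-Mu and 45.8 in the group labelled wild type, a log2 ratio of 0.79 (1.73-fold). CesA3 (GRMZM2G039454) had 25.8 in fdl1-Mu and 29.3 in wild type, a log2 ratio of -0.18. CesA13 (GRMZM2G002523) stayed at 0.0910 in fdl1-Mu and 0.0826 in wild type. The study's annotation pairs CesA8 with Arabidopsis CESA6, the same homologue as for CesA7. CesA7 and CesA8 had the highest ratios of the CesA genes. The homologues of CesA1, CesA3, CesA5, CesA6 and CesA9 are not given here, so the ratios of a whole class were not compared. With CesA3 and CesA8 added to the 7 primary wall genes, the sum was 492.3 in fdl1-Mu and 337.4 in wild type, and its ratio of 1.46 was near that of the 7. CesA proteins are closely related, and how the authors' counting split fragments shared by similar members was not tested.

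COBRA-like proteins are anchored at the outer face of the plasma membrane and are needed for ordered cellulose deposition. Of the 7 genes of the brittle stalk2 family in the name table, 3 reached an FPKM of 1 in one group or both, and all 3 had the higher value in fdl1-Mu, 1 of them by at least 1.5-fold, where 52.3% of the 21364 genes had the higher value in fdl1-Mu and 11.7% were at least 1.5-fold higher. Bk2L3 (GRMZM5G826714) had 123.2 in fdl1-Mu and 82.4 in wild type, a log2 ratio of 0.58 (1.496-fold). Bk2L4 (GRMZM2G071970) had 22.8 in fdl1-Mu and 18.3 in wild type, a log2 ratio of 0.32. Bk2L7 (GRMZM2G167497), the one past 1.5-fold, was low, at 1.18 in fdl1-Mu and 0.642 in wild type, and was also named after its value was seen. The median log2 ratio of the 3 was 0.58.

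Cellulose synthase-like (Csl) proteins belong to the same superfamily, and many of them make other wall polysaccharides. A search of the name table for names starting with Csl found 2 genes, and they differed in direction. Csl genes listed there under other names were missed, so these 2 do not stand for the family. CslF6-1 (GRMZM2G110145) had an FPKM of 71.2 in fdl1-Mu and 31.0 in wild type, a log2 ratio of 1.20, which was above that of every CesA gene. CSLD1 (GRMZM2G015886), which acts in epidermal cell division and leaf width in maize, had 32.2 in fdl1-Mu and 37.6 in wild type, a log2 ratio of -0.22.

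The table describes whole tips, in which fewer cells of a type and less RNA per cell cannot be told apart. Of 5 markers of dividing cells, 4 had the lower value in fdl1-Mu, with log2 ratios from -0.56 for pcna1 to -0.40 for pcna2, and cdc2 had 27.0 in fdl1-Mu and 26.7 in wild type. Summed FPKM of these 5 was 293.7 in fdl1-Mu and 396.7 in wild type. The 3 epidermal markers that reached an FPKM of 1 had the lower value in fdl1-Mu, as did gl1 below that minimum. Summed FPKM of these 4 was 47.4 in fdl1-Mu and 55.8 in wild type. Beside these counts and that of the dividing cell markers, 52.3% of the 21364 genes had the higher value in fdl1-Mu. No value was found by name for gl2 and gl8, also planned as epidermal markers, or for some planned markers of dividing cells. Neither marker list is therefore complete. Among the epidermal homeobox genes, ocl4 was at 5.86 in fdl1-Mu and 9.48 in wild type (1.62-fold lower in fdl1-Mu). The gene ocl5 was at 11.6 in fdl1-Mu and 14.5 in wild type, and ocl1 at 29.8 in fdl1-Mu and 31.3 in wild type. The wax gene gl1 was under 1 in both, at 0.208 in fdl1-Mu and 0.492 in wild type. The median log2 ratio of the 3 epidermal markers that reached an FPKM of 1 was -0.32. The 5 markers of green leaf went in opposite directions. Both rbcS identifiers, for the small subunit of Rubisco, were more than 2-fold higher in fdl1-Mu, where 4.67% of the 21364 genes were at least 2-fold higher. GRMZM2G098520 had 4.41 in fdl1-Mu and 1.88 in wild type, and GRMZM2G113033 had 2.79 in fdl1-Mu and 0.949 in wild type. These values are low, and with 1 added to each FPKM both were under 2-fold, with log2 ratios of 0.91 and 0.96. The dikinase gene pdk1 was 2.18-fold lower in fdl1-Mu, with 7.43 in fdl1-Mu and 16.2 in wild type. Its synonyms in the name table cover both a C4 form and a cytosolic form, which this value does not separate. The malic enzyme gene me3 was at 4.32 in fdl1-Mu and 4.83 in wild type, and pep1, the carboxylase of C4 photosynthesis, at 0.0603 in fdl1-Mu and 0.0251 in wild type. The part of these cell types in the CesA values was not tested.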

How the data were processed

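RNA from coleoptile tips was sequenced in 3 fdl1-Mu and 3 wild-type replicates. Per the labels and methods, the authors made stranded TruSeq mRNA libraries, trimmed reads with Trimmomatic, mapped them to the B73v3 genome with TopHat2 2.1.1 and ran Cuffdiff. The Cuffdiff version, options, gene annotation and use of strand are not given in the sources used here. The deposited table holds the authors' FPKM for each gene, 1 value per group pooled over replicates, scaled for transcript length and library size. Its log2 ratio, test statistic, p-value, q-value and significance columns hold the authors' own comparison and were not used. The number of reads behind a value, and so its counting error, is unknown.

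Ratios and log2 ratios (fdl1-Mu over wild type) were computed from FPKM, with no pseudocount, where both values were above 0, using Python 3.11.15, numpy 2.4.6, pandas 2.3.3 and matplotlib 3.10.9. No test was run, and a ratio of at least 1.5 among genes that reached an FPKM of 1 in one group or both took the place of a call. The code was tested on simulated data with known changes. Gene names came from NCBI RefSeq (Zm-B73-REFERENCE-NAM-5.0), used for names and neighbours only, which matched 48.4% of the 39283 identifiers and all 10 members. Coordinates are those of the deposited table in B73v3, with 1 added to each start. None of the members' loci overlapped another locus. Sequences were not analysed here.

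The members and lists were chosen with earlier results of these data known. Named genes are the 10 members, the other genes that RefSeq calls CesA, FDL1, and the 3 highest and 3 lowest ratios of the Csl and the brittle stalk2 lists where both groups reached an FPKM of 1; bk2, Bk2L7 and the markers of dividing cells, epidermis and green leaf that are named were added after their values were seen. Alternatives were pseudocounts of 0.1 and 1, folds 25% above equality and of 2, other minimum FPKM values, scaling to equal sums, centring on the median gene, and other ways of combining genes. Sums with CesA3 and CesA8 and without GRMZM2G445905 were added after seeing the data.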

Additional observations from a re-analysis of the deposited data

How the results depend on the processing

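Of 80 alternative values computed, 70 kept their direction and, as a count, a percentage or a ratio of FPKM, stayed within 1.5 times of the value given. Among these were the single ratios of the 10 members, except CesA11, which has no ratio, and the ratios of the sums of the 7 primary wall and of all 10 genes. Alternatives were not computed for the single ratios of CesA3, CesA8 and CesA13. Log2 ratios near 0 moved more in proportion, that of CesA5 between -0.06 and -0.03, that of CesA12 between -0.07 and -0.02 and that of GRMZM2G445905 between 0.06 and 0.09. That of the 3 secondary wall genes was 0.02 as the mean of the genes' own log2 ratios, against 0.09 for their sum. Leaving out GRMZM2G445905, the most abundant of the 3 secondary wall genes, turned the log2 ratio of their sum to -0.043, since CesA12 alone was left. With a fold of 2, 0 CesA genes were counted as higher in fdl1-Mu in place of 4. Across all genes, the share at least 1.5-fold higher was 11.7%, which became 4.67% with a fold of 2, 22.4% with a fold 25% above equality and 7.29% at an FPKM of at least 10. The share lower became 1.31% with a fold of 2, 16.1% with that lower fold, 10.1% without a minimum FPKM, 2.82% at an FPKM of at least 10 and 2.88% with a pseudocount of 1. Values under an FPKM of 1, such as those of CesA12, carry little information on a ratio, and CesA11, listed at 0, gives none. No paired analysis was possible because the table holds 1 pooled value per group, and for the same reason no replicate could be left out.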
